A study of Mus musculus with 3 samples.

Results

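A set of 406 genomic sites in the cerebral cortex of mouse embryos had Tbr2 peaks with many reads and carried no listed Neurog2 peak. They were chosen from a list of 14539 Tbr2 peaks from chromatin immunoprecipitation followed by sequencing (ChIP-seq): each lay on chromosomes 1 to 19, held 100 or more sequence tags (reads assigned to the peak), was under 1200 bp wide and did not overlap any of 2640 Neurog2 peaks by 1 bp or more. Without Neurog2 were thus 55.9% (95% interval 52.3 to 59.5) of the 726 peaks within the limits of tags and width, against 86% of all 14321 autosomal Tbr2 peaks, 89.2% of those under 100 tags and 51.3% of those with 100 or more tags at any width. The remaining 320 of the 726 overlapped a Neurog2 peak and served as the comparison set. Tags, width and overlap therefore chose the sites, and they are described below without a test. The fold change and p-value of a Tbr2 peak come from the same ChIP measurement as its tags, so they too are described only.

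The tissue was wild-type cerebral cortex from C57BL/6 embryos at E14.5, when excitatory neurons are being born. Crosslinking used 2 mM disuccinimidyl glutarate (45 min), which links proteins to each other, followed by 1% formaldehyde (10 min). There was 1 library with an antibody against Tbr2, 1 with an antibody against Neurog2 and 1 of input chromatin, for which no peak list was used here. With a single library per factor no value has a replicate error, peaks are not replicates, and no difference between sets of peaks was tested. Intervals given below are 95% intervals over peaks (Wilson for shares, order-statistic for medians) and cover counting error only. No source at hand states the total reads of a library, so the depth is unknown, and tag numbers are not comparable between the factors. The tissue is a mixture of cells, so a Tbr2 site and a Neurog2 site may be bound in the same cells or in different ones.

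Tbr2, also called Eomes, is a T-box transcription factor and the defining marker of intermediate progenitor cells, the dividing cells of the subventricular zone that give rise to most excitatory neurons of the cortex. Neurog2 is a proneural basic helix-loop-helix factor, which binds DNA at E-box elements together with an E protein and acts in radial glia and in the progenitors they produce. The factors belong to the same lineage, in which Neurog2 acts upstream of Tbr2, and their DNA-binding domains recognise different sequences. A site that is strong in one profile and missing from the other is therefore a place where their recorded binding differs. The mm9 genome sequence and gene annotation were not used here, and sites are named by position only, in mm9, counted from 1.

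The strongest of these sites ranked among the strongest peaks of the whole Tbr2 list. The peak with the most tags was at chr12:119047584-119048535, with 326 tags, a deposited fold change of 55.8 (the control behind it is not known here) and a p-value of 9.59e-269, rank 10 in the list. Its nearest Neurog2 peak was 179.2 kb away, and a second, weak Tbr2 peak of 21 tags began 85 bp from its edge. The next was chr4:151983005-151983864, with 294 tags and a fold change of 40.9, at 36.2 kb from a Neurog2 peak. At chr13:40701764-40702846 there were 273 tags with a fold change of 42.9, and the nearest Neurog2 peak was 642.3 kb away.

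The highest fold change belonged to chr5:21767982-21768934, at 89.8 with 267 tags. Chr10:53149493-53150357 had 254 tags and a fold change of 49.6, and chr16:50585625-50586805 had 242 tags and a fold change of 40. At 241 tags there were 2 sites, chr3:67900399-67901561 with a fold change of 29.9 and chr5:91416320-91417464 with a fold change of 74. The last of the 10 sites with most tags was chr11:64709240-64710230, with 226 tags and a fold change of 49.4. The nearest other Tbr2 peak overlapped Neurog2 for 0 of these 10, for 57 of the 406 sites (14.0%) and for 2077 of all 14321 autosomal Tbr2 peaks, a like share, and a count of 0 in 10 is not far from it. At the chromosome 3 site the neighbour, 23.8 kb away, held 351 tags. This neighbour overlapped no Neurog2 peak either, and its width kept it out of the 406 sites.

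One site stood apart from all the others. Chr2:98504913-98505668 had 271 tags, rank 4 of the 406, but its fold change was 3.78, the lowest of the 406, and its p-value of 2.9e-07 ranked 11520 in the Tbr2 list. By fold change it was thus not a strong peak, since the median over all autosomal Tbr2 peaks was 9.61. It held 71.7 tags per unit of fold change (the tag number divided by the fold change), against a median of 4.38 over the 406 sites and a highest value of 19.4 in the comparison set. The next lowest fold changes were 9.36 at chr5:111487037-111488196 and 10.1 at chr12:55086942-55088086. These low values were picked out after they had been seen. No filter for regions of high background was applied here to the deposited lists.

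Several sites reached a high fold change with fewer tags. Chr8:92038018-92038789 had a fold change of 76.8 from 179 tags in 772 bp. Chr10:8648885-8649563 and chr3:34517598-34518360 both had a fold change of 69.0, from 185 tags in 679 bp and from 166 tags in 763 bp. Fold changes of 67.3, 66.7 and 66.2 were found at chr1:68352198-68352989, chr10:50492325-50493306 and chr12:90960750-90961562, with 164, 169 and 157 tags. Chr3:11260925-11261668 reached 60.6 with only 123 tags, and chr13:13638835-13639723 reached 58.2 with 176. Only 2 sites were among both the 10 with most tags and the 10 with the highest fold change, and both were on chromosome 5.

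**Figure D1:**
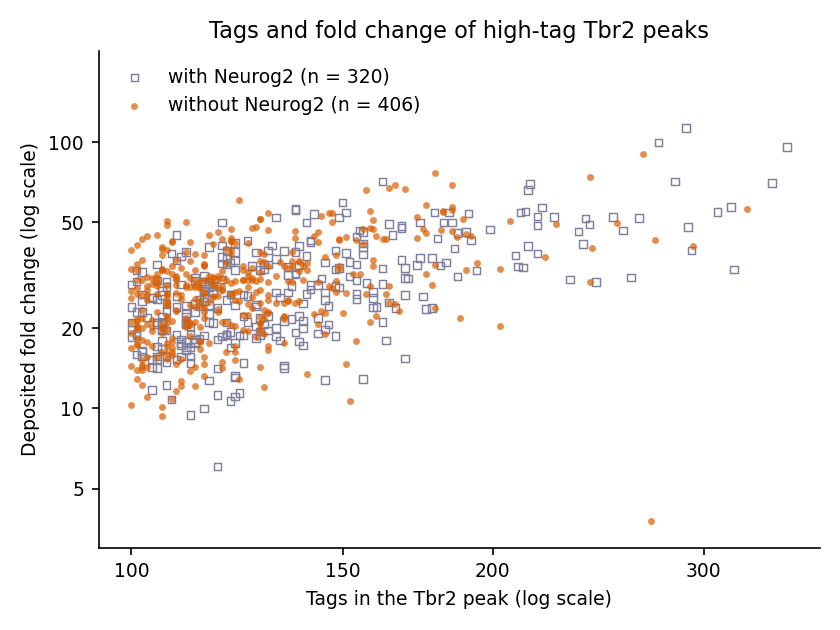
Each point is 1 Tbr2 peak, with its number of tags on the x axis and the authors' fold change on the y axis (both log scales); filled orange circles are the 406 peaks without Neurog2 and open squares the 320 with Neurog2. The sets share most of their range, 1 orange point at 271 tags lies far below the rest at a fold change of 3.78, and squares are more frequent at 200 tags and above.

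Over all 406 sites the tag number ran from 100 to 326 with a median of 120 (interquartile range 108 to 138). In the comparison set it ran from 100 to 352 with a median of 128 (112.8 to 156). Widths ran from 569 bp to 1 bp under the limit, with a median of 982.5 bp, against 606 to 1197 bp and a median of 1000.5 bp in the comparison set. The median fold change was 28.5 (interquartile range 21.2 to 35.8), against 26.9 (19.8 to 37.1) in the comparison set and 9.61 over all 14321 autosomal Tbr2 peaks. Of the 406, 27 had a fold change of 50 or more, and of the 320, 28. The share over all autosomal peaks was not computed for this limit, so the counts are a description only. The 406 sites made up 2.79% of the Tbr2 peaks and held 7.13% of the tags in them.

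Fold changes on the 2 sides of the tag limit were alike, and those on the 2 sides of the width limit overlapped in range. The 9 sites with exactly 100 tags had fold changes of 10.3 to 39.2 (median 21.2), and the 20 otherwise eligible peaks with 99 tags had fold changes of 8.49 to 38.1 (median 21.9). The 6 sites within 10 bp under the width limit had fold changes of 15.3 to 54.9 (median 24.7), and the 4 peaks of 1201 to 1206 bp left out by the width limit had fold changes of 10.7 to 31.8 (median 17.0). The widest site kept was chr2:34214837-34216035, 1 bp under the limit with 142 tags, and the first one left out was chr12:113828613-113829813, at 1201 bp with 158 tags.

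The limit on overlap did fall in a gap. Each of the 320 comparison peaks contained at least 1 Neurog2 peak whole, and the shortest longest overlap was 122 bp, at chr16:84041975-84042911. On the other side, none of the 406 sites had a Neurog2 peak within 100 bp of its edge, 3 had one within 500 bp and 5 within 1 kb. No peak of either set was thus assigned by a grazing overlap. A requirement that at least 50% of the Neurog2 peak be covered gave the same 406 sites.

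At the 5 sites within 1 kb of a Neurog2 peak, that Neurog2 peak lay on the nearest other Tbr2 peak. The nearest other Tbr2 peak overlapped Neurog2 at 14.0% of all 406 sites, but these 5 were picked for their nearness to Neurog2, so their count is a description only. The closest was chr1:56890788-56891965, with 166 tags and a fold change of 24.6, which lay 284 bp from a Neurog2 peak and 169 bp from the Tbr2 peak of 60 tags that this Neurog2 peak overlapped. At chr19:28467911-28468861 (103 tags, fold change 25.6) the Neurog2 peak was 401 bp away, on a stronger Tbr2 peak of 223 tags. At chr7:143274964-143276093 (176 tags, fold change 31.9) the Neurog2 peak was 471 bp away, and the Tbr2 peak on it held 32 tags and started 21 bp from the site. The other two were chr7:90351939-90352925 and chr12:40684381-40685391, at 867 and 988 bp.

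At the other extreme, the site farthest from Neurog2 was chr15:47924933-47926040, with a fold change of 19.6 and a distance of 4152.7 kb. Chr5:9424195-9425059 and chr5:9702681-9703628 were 3838.2 and 3559.6 kb from the same Neurog2 peak, with fold changes of 30.2 and 34.2. Chr10:28064684-28065819 was 3032.6 kb away with a fold change of 21.3, and chr16:25959816-25960987 was 2890.6 kb away with a fold change of 23.1. Distance to Neurog2 and strength were all but unrelated over the 406 sites, with a Spearman rho of 0.034 for tags and 0.085 for fold change. These rho values describe sites from a single pair of libraries.

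The share of high-tag Tbr2 peaks that lacked Neurog2 was lower where tags were more numerous. For this the 726 peaks were placed in 4 bands of tags: the first started at 100 tags and spanned 25 tag numbers, the second spanned the next 25, the third ran from 150 to below 200, and the last started at 200. Without Neurog2 were 61.0% of the peaks in the first band (56.1 to 65.8), 56.5% in the second (49.1 to 63.6) and 48.7% in the third (39.9 to 57.7). At 200 tags and over the share was 29.8% (18.7 to 44.0), or 14 of 47 peaks. The first band held 57.9% of the 406 sites and 46.9% of the comparison set. The limits did not fix this slope, but tags and overlap both chose the sites, so it is given as a description and was not tested.

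Differences between widths were smaller. The share without Neurog2 was 65.2% (53.5 to 75.4) from 600 to below 800 bp, 56.2% (50.6 to 61.6) from 800 to below 1000 bp and 53.7% (48.5 to 58.9) from 1000 bp to the limit, with overlapping intervals. Among the 501 peaks of 100 or more tags that were 1200 bp or wider it was 44.5% (40.2 to 48.9). Below 200 tags, peaks under 1000 bp and peaks of 1000 bp or more differed by less than 2 percentage points within each band of tags, for example 61.8% and 60.1% in the first. At 200 tags and over, 9 of 20 narrower peaks and 5 of 27 wider peaks had no Neurog2.

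**Figure D2:**
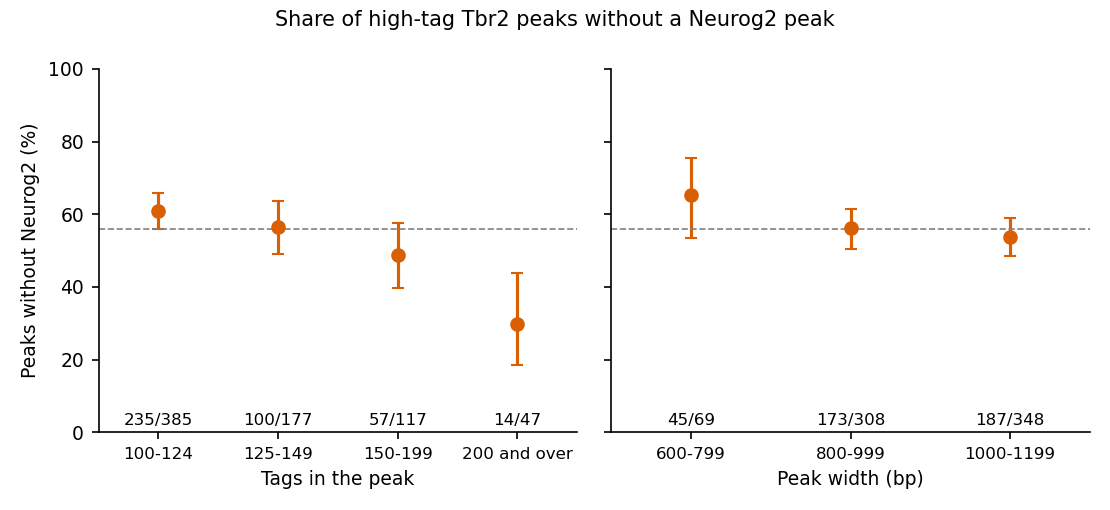
Share of high-tag Tbr2 peaks without a Neurog2 peak (y axis, percent) by tags in the peak (left) and by peak width in bp (right); points are shares, bars are 95% Wilson intervals, the dashed line is the share over all 726 peaks, and the counts stand at the foot. The share is 61.0% in the first band of tags and 29.8% at 200 tags and over, while the intervals of the width bands overlap; the single peak under 600 bp is not drawn.

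Peaks without Neurog2 reached a higher fold change for a similar number of tags in 3 of the 4 bands. In the first band the median fold change was 26.2 (24.1 to 27.6) for 235 sites and 21.2 (19.8 to 24.0) for 150 comparison peaks, a difference of 5.06. In the second band the medians were 30.2 and 27.3, and in the third 43.4 and 35.4, with overlapping intervals in both bands. At 200 tags and over the order turned, with 41.9 (29.9 to 55.8) for 14 sites and 51.7 (41.3 to 54.5) for 33 comparison peaks. Without the chromosome 2 site of lowest fold change the difference in this band was -8.80, against -9.84 with it. The sites were narrower than the comparison peaks by 11 to 30.5 bp at the median in the first 3 bands, and more so in the last, where the medians were 952.5 and 1061 bp.

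The tags per unit of fold change restate this contrast in another form, since the ratio is made from the same tags and fold changes. The median was 4.38 (4.16 to 4.62) without Neurog2 and 5.0 (4.75 to 5.24) with it. When the 726 peaks were ordered by this ratio and split into 4 groups of 181 or 182 peaks, 64.8% (57.7 to 71.4) of the lowest group had no Neurog2 peak, then 60.8%, 51.9% and, in the highest group, 46.2% (39.1 to 53.4). The ratio rose with width, and within the width bands the medians were 3.12 against 3.82 from 600 bp, 3.89 against 4.27 from 800 bp and 5.43 against 5.65 from 1000 bp. The peaks without Neurog2 had the lower median in each of the 3, but the intervals overlapped in all 3 (2.67 to 3.69 and 2.96 to 4.84, 3.69 to 4.01 and 3.93 to 4.63, 5.21 to 5.75 and 5.35 to 6.26). At 200 tags and over the order turned here too, with medians of 6.02 (4.085 to 8.074) without Neurog2 and 5.11 (4.296 to 5.649) with it. These intervals overlapped, and the first rests on only 14 sites. Ordered by fold change alone, 4 such groups showed no steady trend, with 50.6%, 56.4%, 63.5% and 53.3% without Neurog2 from the lowest to the highest.

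**Figure D3:**
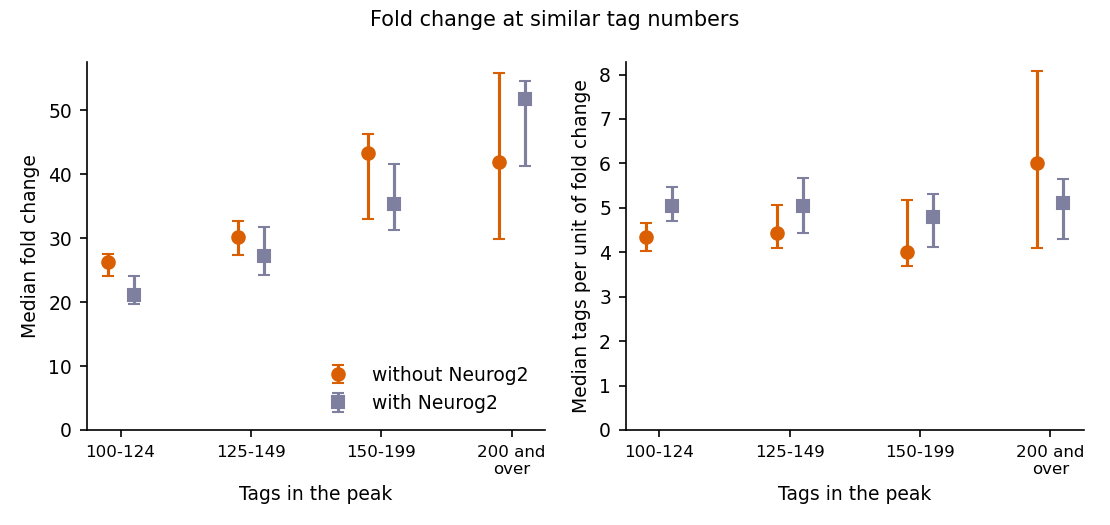
Median fold change (left) and median tags per unit of fold change (right) in bands of tags (x axis) for peaks without Neurog2 (orange circles) and with Neurog2 (grey squares); bars are 95% order-statistic intervals of the median. In the first band the fold changes are 26.2 and 21.2 with intervals that do not meet. At 200 tags and over, with 14 sites, the order is the other way round, with overlapping intervals.

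Among the 406 sites themselves, fold change went with tags (Spearman rho 0.43) and against width (rho -0.44), while tags and width were nearly unrelated (rho 0.071). In the comparison set the rho of tags and fold change was 0.59 and that of width and fold change -0.29. The 45 sites from 600 to below 800 bp had a median fold change of 36.0 (31.4 to 43.3), the 173 from 800 to below 1000 bp one of 30.9 (30.03 to 33.6), and the 187 of 1000 bp or more one of 23.1 (21.3 to 24.9). The median number of tags in these classes was 113, 121 and 120. The narrowest site, chr8:63715594-63716162, packed 181 tags into 569 bp and had a fold change of 46.6.

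Few of the sites lay beside one another, and the same held for the comparison peaks. When all Tbr2 peaks were joined into regions across short gaps of less than 13 kb, the 406 sites fell into 397 regions, of which 388 held 1 of them, 9 held 2 and none held more. The 320 comparison peaks fell into 314 regions. In 232 cases, 57.1% of the sites, the site was the only Tbr2 peak of its region, against 162 or 50.6% of the comparison peaks. A Neurog2-overlapping Tbr2 peak stood in 43 of the 397 regions, and in 6 of these it was a peak of the comparison set. A like share over other regions was not computed.

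The richest of the regions with 2 sites was chr9:118364273-118397192, which held 9 Tbr2 peaks in 32.9 kb. Its sites were chr9:118364273-118365229, with 185 tags and a fold change of 57.3, and chr9:118393247-118394269, with 109 tags and a fold change of 14.8, near opposite ends. The region's Neurog2 overlap was on another, weaker Tbr2 peak of 31 tags. At chr9:106029032-106048541 the sites held 146 and 130 tags, and a Neurog2 peak again lay on a weaker peak, of 43 tags. In chr16:74182378-74201523 the sites held 110 and 115 tags with fold changes of 33.6 and 34.1, and the Neurog2-overlapping peak held 99 tags in 1266 bp.

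The last 2 of the 5 regions named held 4 Tbr2 peaks each. In chr2:156874180-156896212 the sites were neighbours 102 bp apart, with 123 and 152 tags and fold changes of 12.9 and 10.7, and the Neurog2 overlap was on a peak of 34 tags. In chr6:31995327-32016436 the sites held 128 and 129 tags with fold changes of 20.9 and 35.6, and none of the 4 Tbr2 peaks overlapped Neurog2. The lower tag numbers of the other peaks in these 5 regions follow largely from the tag minimum that the sites had to meet.

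The median distance from a site to the nearest other Tbr2 peak was 18.6 kb (interval 14.7 to 23.7), against 12.7 kb (10.2 to 17.6) in the comparison set and 26.1 kb over all autosomal Tbr2 peaks. The intervals of the sites and the comparison set overlap. The median distance was longer than in the comparison set in the first band of tags (20.2 against 12.6 kb) and in the second (19.2 against 12.0 kb), but not in the third (13.6 against 14.4 kb) or at 200 tags and over (6.08 against 17.7 kb). The intervals of the sets overlapped in every band, so these orders are a description only. Within 10 kb of another Tbr2 peak lay 39.4% of the sites (34.8 to 44.2), 43.8% of the comparison peaks (38.4 to 49.2) and 31.9% of all autosomal peaks. Chr11:105334740-105335899, with 155 tags and a fold change of 31.8, was the most remote site, at 724 kb from the next Tbr2 peak.

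The surroundings of the sites held mostly weaker Tbr2 peaks, which follows from the choice of sites by tags, since 8.57% of autosomal Tbr2 peaks reach 100 tags. Within 50 kb, 99 of the 406 had no other Tbr2 peak, and of the 307 that had one 79.8% (74.96 to 83.9) held more tags than every other peak there. In the comparison set 87.0% (82.2 to 90.7) of 239 did, and over all autosomal peaks with a neighbour 35.7%. The nearest other Tbr2 peak had a median of 41 tags in both sets. A Neurog2-overlapping Tbr2 peak lay within 50 kb of 24.1% of the sites (20.2 to 28.5), 26.6% of the comparison peaks (22.0 to 31.7) and 19.0% of all autosomal peaks.

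Distances to Neurog2 peaks that were not overlapped were also close in the sets. The median was 198.3 kb (169.9 to 250.7) for the 406 sites and 182.3 kb (139.6 to 255.1) for the 320 comparison peaks, counting for the latter the nearest Neurog2 peak besides their own. Over all 14321 autosomal Tbr2 peaks it was longer, 248.7 kb (239.2 to 257.5), with an interval that overlapped those of both sets. A Neurog2 peak stood within 10 kb of 9.36% of the sites (6.90 to 12.6) and of 12.8% of the comparison peaks (9.59 to 16.9), and within 100 kb of 35.0% and 39.4%. Between the sites and the comparison set all of these intervals overlapped. The shares within 10 kb and 100 kb were not computed over all autosomal peaks.

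**Figure D4:**
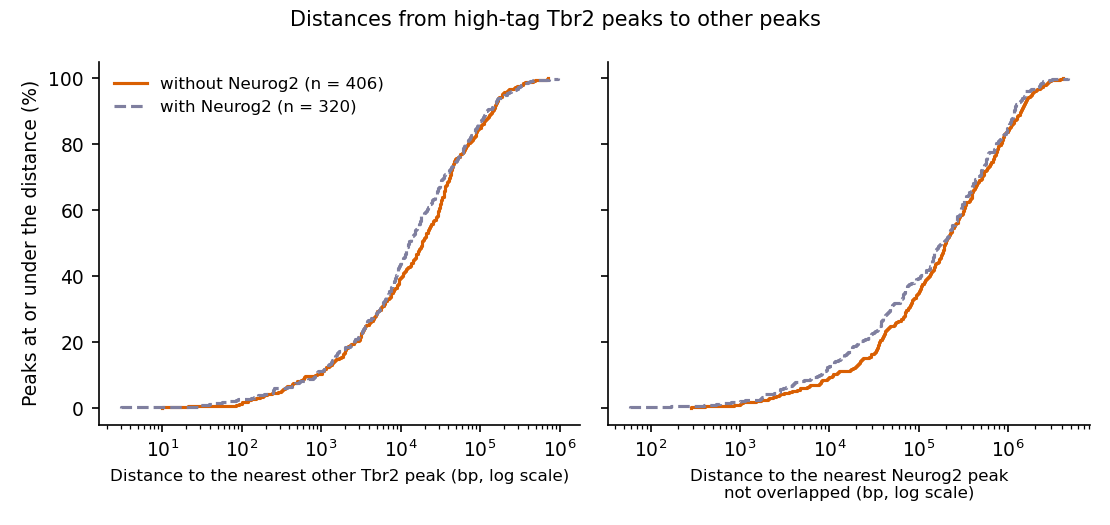
Cumulative share of peaks (y axis, percent) by distance to the nearest other Tbr2 peak (left) and to the nearest Neurog2 peak that the peak does not overlap (right), in bp on log axes; solid orange lines are the 406 peaks without Neurog2 and dashed grey lines the 320 with Neurog2. The lines run close together, with medians of 18.6 and 12.7 kb on the left and 198.3 and 182.3 kb on the right.

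Every autosome held some of these sites, from 9 on chromosome 17 to 30 on chromosome 9. The share of high-tag peaks without Neurog2 was highest on chromosome 3, where 29 of 38 had none, 76.3% (60.8 to 87.0), and lowest on chromosome 4, with 24 of 53 or 45.3% (32.7 to 58.6). On 18 of the 19 autosomes the interval included the overall 55.9%, and chromosome 3 was the exception. Of 19 such intervals at 95%, about 1 would miss the overall share by chance, so the exception is given as a value only. Chromosome 3 also had the highest share without Neurog2 over Tbr2 peaks of all tag numbers, 89.5%, against 86.0% over all autosomes.

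**Figure D5:**
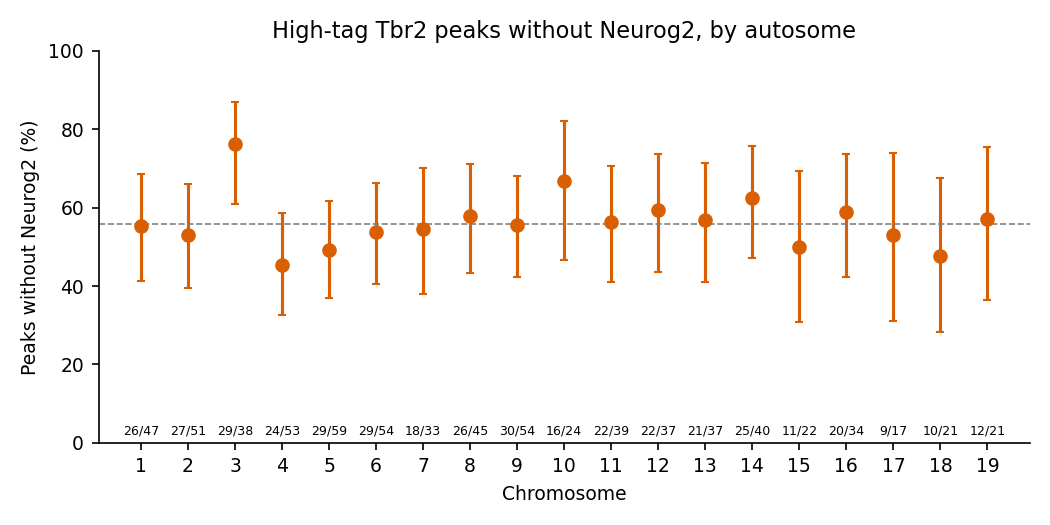
Share of high-tag Tbr2 peaks without Neurog2 (y axis, percent) on each autosome (x axis); points are shares, bars are 95% Wilson intervals, the counts stand at the foot, and the dashed line marks the share over all autosomes. Chromosome 3, at 76.3%, is the only one whose interval does not include the line, and about 1 of 19 would miss it by chance.

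For scale, the comparison peaks with most tags were at chr2:109800045-109801109 (352 tags, fold change 95.9), chr15:98147397-98148392 (342 tags, 70.2), chr1:91446380-91447460 (318 tags, 33.3), chr1:192121389-192122519 (316 tags, 57.0) and chr18:82027272-82028444 (308 tags, 54.5). Their Neurog2 peaks had fold changes of 26.4, 7.73, 11.4, 19.6 and 18.1 and midpoints 5 to 102.5 bp from the Tbr2 midpoints. Of the 406 sites the one with most tags, 326, falls within this range of Tbr2 tags. Wider Tbr2 peaks without Neurog2, left out by the width limit, reached 361 tags. Among the 100 lowest p-values of the 14539 Tbr2 peaks, 18 belonged to the 406 sites and 34 to the 320 comparison peaks. The rest belonged to neither set. The sets differ in size, and the p-value comes from the same measurement as the tags. At 200 tags and over there were 14 sites and 33 comparison peaks, so these counts are a description only.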

How the data were processed

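Peaks of 1 Tbr2 and 1 Neurog2 ChIP library were analysed. Bowtie 0.12.3, MACS 1.4 and build mm9 are named, per the submitters' processing notes. Settings, control and duplicate handling: not given in the sources used here. The lists are GeneProf tracks, per the file headers. For each peak the authors deposited a position and, as text, a fold change (a ratio), an FDR, a p-value and a number of tags; the deposited score column is 750 for every peak and was not used. No reads or depth were used.

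Overlaps, distances and stitched regions were computed with Python 3.11.15, pandas 2.3.3 and numpy 2.4.6, and intervals with scipy 1.17.1; the code was tested on simulated data. Distances run from edge to edge, and regions join Tbr2 peaks across gaps of up to 12.5 kb. Bands of tags were 100 to 124, 125 to 149, 150 to 199 and 200 or more. Ranks by p-value are over the whole Tbr2 list.

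The sites and lists were chosen with earlier results of these data known. Named regions are the 10 sites with most tags, the 10 with highest fold change, those at the limits, the 5 nearest to and 5 farthest from Neurog2, the 5 comparison peaks with most tags and the 5 regions with most sites; others were chosen after their values were seen. Among regions with equal numbers of sites, those with more Tbr2 peaks and then more tags came first. The planned sequence and gene comparisons need an mm9 genome and were not run. Alternatives changed the limits of tags, width and overlap, the ranking measure and the distances.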

Additional observations from a re-analysis of the deposited data

How the results depend on the processing

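The share of high-tag Tbr2 peaks without Neurog2, 55.9%, moved mainly with the tag minimum: it was 62.1% at 80 tags, 43.3% at 150 and 29.8% at 200, where 14 sites remained. It was 51.3% with no width limit and 62.1% when only the 1956 Neurog2 peaks with a p-value of 1e-08 or less counted. Leaving out Neurog2 peaks can only raise the share. Counting sites with a Neurog2 peak within 10 kb as having Neurog2 gave 50.7%, or 368 of the same 726 peaks. That change can only lower the share. Taking the same number of narrow peaks by fold change gave 65.3%, and by p-value 59.5%; 259 and 330 of the 406 sites were among them. The difference in median fold change, 1.66, was 0.51 to 2.94 under 5 alternatives and -9.84 at 200 tags. The medians behind the value of 1.66 had overlapping intervals. The difference in distance to the nearest other Tbr2 peak, 5.87 kb, was -4.16 kb at 150 tags and -11.6 kb at 200 tags (chosen after seeing the data); the sites' own median was then 11.9 and 6.08 kb. The median distance to Neurog2 was 359.2 kb at 200 tags, against 268.8 kb in the comparison set. Its interval over 14 sites, 36.2 to 1120.5 kb, includes the main value of 198.3 kb. Within 25 kb and 100 kb, 55.7% and 84.7% of sites had another Tbr2 peak. On chromosome 3 the share at 200 tags was 50%, which is 1 of only 2 peaks, and on chromosome 4 it was 61.7% at 80 tags, so that chromosome 4 was then close to the overall share. Of 43 alternatives, 25 stayed within the range set for the value reported. For a share or a median this range was its 95% interval. For a difference it was made from the opposite ends of both sets' intervals, which is wider than a 95% interval of the difference. The cause of these shifts was not tested. The depth of the libraries is unknown and limits every statement on missing Neurog2: a site weaker than the weakest listed Neurog2 peak would be counted as without it.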

Other observations

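On the sex chromosomes, outside the sites described, 4 Tbr2 peaks met the limits of tags and width, all on X, and 3 of them had no Neurog2 peak. These were chrX:46258335-46259216 with 100 tags and a fold change of 33.6, chrX:140336511-140337440 with 147 tags and a fold change of 53.3, and chrX:73843801-73844802 with 229 tags and a fold change of 4.72. The last had a low fold change for its tags, as the chromosome 2 site of 271 tags and a fold change of 3.78 did.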
